A study of Mus musculus with 14 samples.

Results

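Cytochrome P450 genes were followed in RNA sequencing of whole kidneys from 14 female CD-1 mice, an outbred wild-type stock, at 18 weeks of age. A gene was taken as a member if it was protein-coding, if its symbol had the form Cyp followed by a family number, a subfamily letter and a gene number, and if it had more than 10 counts over the 14 libraries. Of 100 genes with such a symbol, 64 passed, out of 22339 genes of any kind that did. The 36 left out had at most 9 counts in all, and 14 of them, Cyp7a1, Cyp11b1, Cyp11b2 and Cyp19a1 among them, had no count in any library, where a count of 0 allows up to 3 counts per library. Each library came from 1 mouse. Term mice without diabetes (T-ND, n = 4) and term mice made hyperglycemic with streptozotocin (STZ), a toxin of pancreatic beta cells (T-D, n = 4), were set beside preterm mice without diabetes (PT-ND, n = 3) and preterm mice given STZ (PT-D, n = 3). Preterm pups were delivered by Caesarean section and raised by foster mothers that had received acepromazine, a sedative, whereas term pups were born naturally and stayed with their own mothers. Preterm birth, the mode of delivery, the fostering and the sedative therefore cannot be told apart in any comparison here. Some PT-D mice of the study, and no T-D mice, had a second round of STZ, and which PT-D mice these were is not given. All mice had received cationic ferritin before the kidneys were taken.

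Cytochrome P450s are heme enzymes that insert an oxygen atom into fats, steroids, vitamins and foreign compounds, with electrons passed on by P450 oxidoreductase in the endoplasmic reticulum or by ferredoxin in mitochondria. In the kidney the Cyp4a and Cyp4f enzymes hydroxylate the end of fatty acids such as arachidonic acid, and Cyp2c and Cyp2j enzymes turn arachidonic acid into epoxides, both of which act on vessel tone and salt transport. The proximal tubule also activates vitamin D with Cyp27b1, and Cyp24a1 breaks the active hormone down.

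Library size lay between 16697246 and 28673176 counts on genes. P450 genes took 0.547% to 0.612% of the counts in T-ND, 0.371% to 0.470% in T-D, 0.514% to 0.529% in PT-ND and 0.457% to 0.526% in PT-D. Proximal tubule markers of the first segments were abundant in every library, with a summed level of 7 genes between 102545 and 173327 normalized counts. Genes of the Y chromosome had at most 3 counts in a library. The 4 markers of the adrenal medulla summed to at most 7.52 normalized counts and the 5 of the adrenal cortex, Star among them, to between 82.4 and 158.7, while Cyp11b1 and Cyp11b2, which define the cortex, had no count. Fat cell markers ranged from 0.912 to 1351 summed normalized counts within groups. Some libraries stood apart. The names of 5 libraries (the first 2 of T-ND, the first of T-D, the second of PT-ND and the first of PT-D) carry a suffix, a, whose meaning is not given, and PT-D replicate 1 had 5579 normalized counts of Kap, an androgen-regulated proximal tubule gene, where the other 13 libraries had 53989 or more. In bulk tissue, fewer cells of a type and less RNA per cell cannot be told apart.

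The P450 RNA of these kidneys came mostly from 10 genes. In TPM (counts per exon length, scaled to the same total in each library), the 10 highest members held 88.6% to 96.0% of the summed P450 level in every library. Of the 64 members, 10 had a mean above 100 TPM, 12 lay between 10 and 100, 20 between 1 and 10, and 22 at or below 1. Cyp4a10, a fatty acid omega-hydroxylase, had the highest mean at 1001 TPM, with libraries between 733.9 and 1279. Cyp4a14, of the same family, followed at 799.0 TPM, between 325.6 and 1166. Cyp2a5, a coumarin hydroxylase, averaged 685.7 TPM but spanned 97.5 to 2510, so that its place in the order changed with the library. Cyp2j5, an arachidonate epoxygenase of the proximal tubule, averaged 664.1 TPM within the narrower range of 430.3 to 792.1. The next 6 were Cyp2a4, a steroid 15-alpha-hydroxylase (402.3), Cyp2d26 (369.0), Cyp4b1 (301.5), Cyp2e1, which oxidises ethanol and ketone bodies (271.6), Cyp4a31 (265.7) and Cyp2j11 (248.1 TPM), and the libraries of neighbours in this order overlapped. Cyp2d22 (65.0 TPM) and Cyp24a1 (61.3 TPM) came next. The length used was that of all annotated exons of a gene together, and the order depends on it. Cyp4b1 was divided by 7553 bases and Cyp2j5 by 4415, where their canonical transcripts have 1893 and 2662. For Cyp4a10 these lengths were 2112 and 2109. Over the 14 libraries, Cyp2j5 (262260) and Cyp4b1 (200386) had more raw counts than Cyp4a10 (188641) and Cyp4a14 (189579). The summed P450 level was 6218 to 6805 TPM in the T-ND libraries and 3581 to 4873 in the T-D libraries, without overlap, and 5087 to 5609 in PT-ND and 4534 to 6163 in PT-D. Cyp2a5 alone held 2252 and 2510 TPM in T-ND replicates 1 and 2 and at most 229.4 in T-D. In the tests below, which used another scaling of the counts, 41 of the 64 members were higher and 23 lower in T-D than in T-ND. The median log2 fold change there was 0.19 over the members and −0.02 over all genes.

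**Figure D1:**
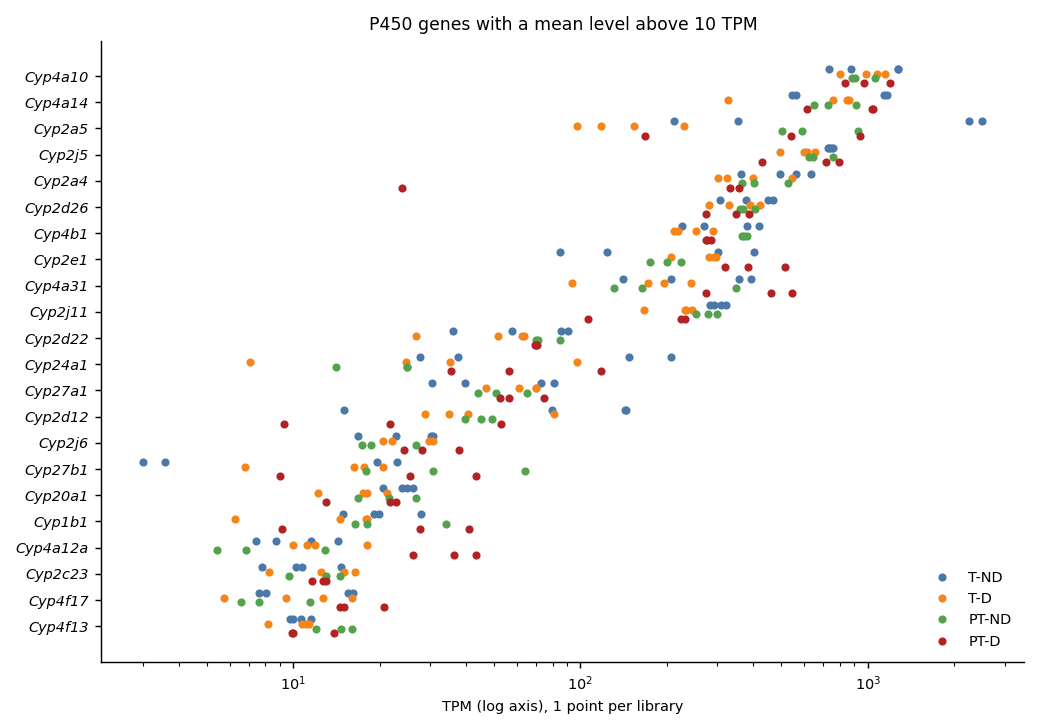
Level of the 22 P450 genes with a mean above 10 TPM, 1 point per library on a log axis in TPM, coloured by group. Cyp4a10 and Cyp4a14 lead, Cyp2a5 spreads from 97.5 to 2510 TPM, and Cyp2a4 has 1 PT-D library at 23.9 TPM.

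The response to STZ in preterm mice is described first, because it held most of the P450 genes that passed the test. In PT-D against PT-ND, 7 of the 64 members were called, that is they had an adjusted p under 0.05 and a log2 fold change beyond 1 (edgeR quasi-likelihood test, Benjamini-Hochberg adjustment over all genes), and all 7 were higher in PT-D. They were Cyp4a12a, Cyp4a12b, Cyp2j13, Cyp7b1, Cyp26b1, Cyp3a13 and Cyp24a1. These 7 were 10.9% of the members, where 4.95% of all 22303 genes tested were called and 2.96% were called higher. The median log2 fold change was −0.18 over the members and 0.05 over all genes. Every PT-D library lay above every PT-ND library for 12 members and below for 11, against 18.7% and 15.8% of all genes. None of the 7 was among the 10 highest members by level. The calls of Cyp4a12a, Cyp4a12b, Cyp2j13 and Cyp7b1 were made whichever of the 6 libraries was left out. The 7 to 0 direction depended on the fit: with a replicate block the 7 were joined by 4 calls lower in PT-D (Cyp2a4, Cyp2d12, Cyp2d9 and Cyp4f14), and with no filter on low counts by 3 lower (Cyp2a4, Cyp2d9 and Cyp4f14) and Cyp2b10 higher. Cyp2d9 and Cyp2b10 are named here after their values were seen. The number of all genes called in these other fits is not given, so the added calls cannot be set against it.

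**Figure D2:**
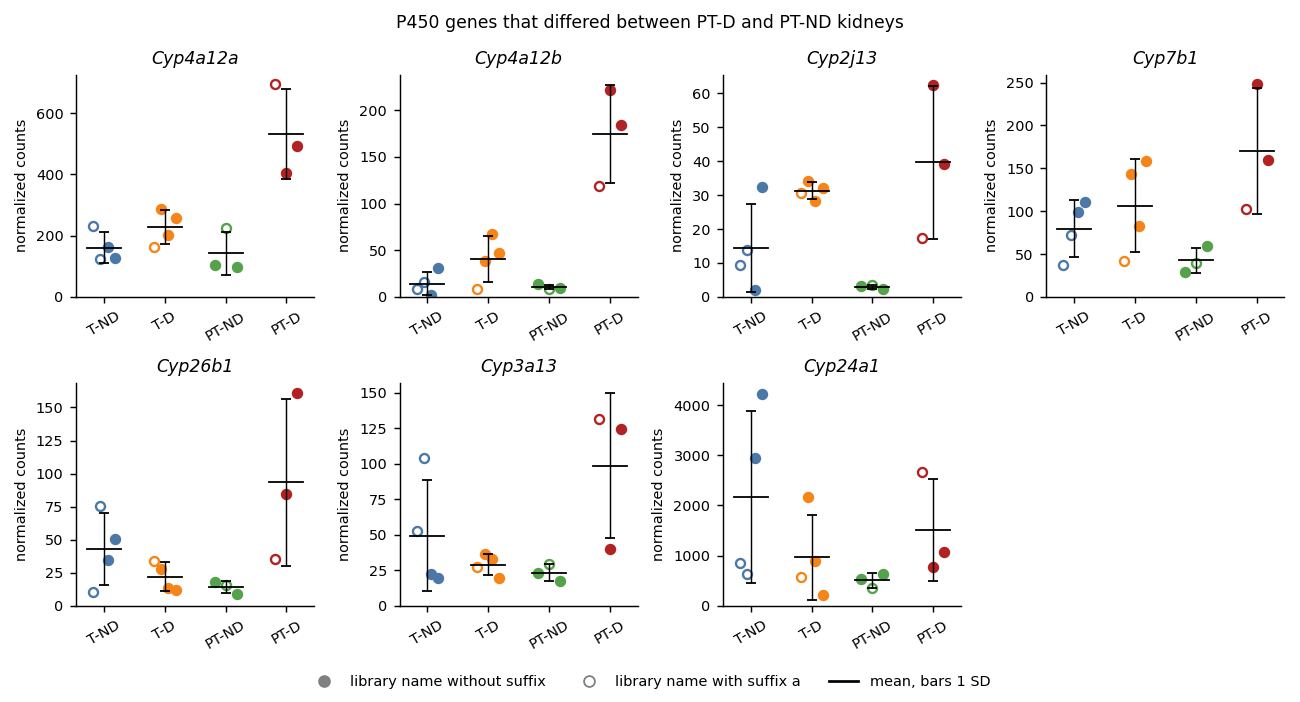
Normalized counts of the 7 P450 genes called in PT-D against PT-ND, 1 point per library, with group means (lines) and 1 SD (bars). Open points are libraries whose name carries the suffix a. In each panel the 3 PT-D libraries sit above the 3 PT-ND libraries, and for Cyp24a1 the highest libraries are 2 of T-ND.

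Cyp4a12a and Cyp4a12b, a pair of neighbouring arachidonate omega-hydroxylase genes known for higher expression in male mouse kidney, gave the clearest difference. Both lie on the plus strand of chromosome 4 in the Cyp4a cluster (GRCm39), Cyp4a12a at chr4:115156243-115190012 and Cyp4a12b at chr4:115268820-115296235, with 78.8 kb between them. Their canonical transcripts were identical at 97.1% of bases, and 35.9% of the 100-base windows of the Cyp4a12a transcript were found letter for letter in another gene, mostly Cyp4a12b. Only uniquely mapped reads were counted, so reads that lie wholly in such windows were lost. Reads that reach beyond them can still be counted, and the read length was not checked. As these 2 genes moved together, the 250 bases before the start of each canonical transcript (GRCm39, plus strand, chr4:115155993-115156242 and chr4:115268571-115268820) are shown, with matches to 4 motifs of 6 letters in capitals. On either strand, the search was for the common nuclear receptor half-site AGGTCA, for the vitamin D receptor half-site in the letters AGTTCA or in the letters AGGTGA, and for the androgen and glucocorticoid receptor half-site AGAACA.
Cyp4a12a: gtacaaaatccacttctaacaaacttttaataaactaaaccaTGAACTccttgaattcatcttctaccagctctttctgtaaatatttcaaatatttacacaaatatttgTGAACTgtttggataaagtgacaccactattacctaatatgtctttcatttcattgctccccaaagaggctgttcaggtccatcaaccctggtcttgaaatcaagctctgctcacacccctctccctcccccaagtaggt
Cyp4a12b: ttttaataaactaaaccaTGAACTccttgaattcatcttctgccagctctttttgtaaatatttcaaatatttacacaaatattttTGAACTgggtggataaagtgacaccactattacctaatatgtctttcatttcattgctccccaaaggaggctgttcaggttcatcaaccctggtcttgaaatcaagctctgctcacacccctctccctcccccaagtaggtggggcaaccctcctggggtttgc
The 2 windows are shifted against each other and were identical at 220 of 226 aligned bases. Each held 2 matches to AGTTCA, both on the opposite strand, and none to the other 3 motifs. A match to AGTTCA was present in 10.4% of 16165 upstream windows of the same length and in 20.3% of those of the 64 members. The other 3 motifs were also more frequent among the members: AGGTCA in 18.8% against 12.3%, AGGTGA in 21.9% against 14% and AGAACA in 26.6% against 12.4%.

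Cyp4a12a had 104.3, 223.9 and 98.1 normalized counts in the PT-ND libraries and 695.0, 406.3 and 494.2 in the PT-D libraries. The term libraries lay at 232.9, 122.4, 162.4 and 126.8 in T-ND and at 163.1, 287.6, 202.7 and 257.4 in T-D. Every PT-D library was thus above all 11 others. The log2 fold change of PT-D over PT-ND was 1.90 ± 0.32 (SE, adjusted p = 0.00709). Cyp4a12b was lower in level, with 13.6, 9.05 and 9.23 normalized counts in PT-ND and 118.6, 221.9 and 183.9 in PT-D. It had 8.32, 15.5, 2.10 and 31.2 in T-ND and 9.06, 39, 67.8 and 47.6 in T-D, again all below PT-D. Its log2 fold change over PT-ND was 4.02 ± 0.37 (adjusted p = 0.00084).

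Both genes were also the only members called in PT-D against T-ND, the comparison of the combined exposures with neither, where they made up 2 of 64 members and 1.45% of all genes were called (0.995% called higher). The log2 fold change there was 1.72 ± 0.26 for Cyp4a12a (adjusted p = 0.0205) and 3.59 ± 0.59 for Cyp4a12b (adjusted p = 0.0245). Leaving out PT-D replicate 2 or 3 raised these adjusted p-values to between 0.0541 and 0.0823, as did leaving out T-ND replicate 4 for Cyp4a12a (0.0631) and T-ND replicates 1 or 2 for Cyp4a12b (0.0779 and 0.0549), with log2 fold changes of 1.62 or more. In the 4 libraries of these groups without the suffix the adjusted p of Cyp4a12b was 0.113. Cyp24a1 was called there, with 2945 and 4232 normalized counts in T-ND and the lower values of 774.1 and 1081 in PT-D.

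Of the 16 Cyp4 members, 3 passed an adjusted p of 0.05 with a higher level in PT-D than in PT-ND, the Cyp4a12 pair included, and 1 with a lower level. At that threshold, with no limit on fold, 7.14% of all genes were higher and 5.78% lower. Cyp4f17, chosen here after its values were seen, was higher by 0.81 ± 0.20 on the log2 scale (adjusted p = 0.0243), under the fold threshold. Cyp4b1, a hydroxylase of fatty acids and foreign compounds, fell from 17362, 19195 and 19764 normalized counts in PT-ND to 13245, 13159 and 11123 in PT-D. The groups did not overlap and the log2 change was −0.59 ± 0.16 (adjusted p = 0.0327). Its gene shares 3424 bases with Cyp4a32 on the other strand, and the libraries do not mark strand. The pair with the highest TPM differed by less than the spread between libraries: Cyp4a10 by −0.11 ± 0.17 (adjusted p = 0.726) and Cyp4a14 by 0.07 ± 0.21 (adjusted p = 0.863). Cyp4a31 had 5315, 2854 and 2384 normalized counts in PT-ND and 4402, 7153 and 7432 in PT-D, which overlapped (log2 0.85 ± 0.29, adjusted p = 0.0827). It was called higher when PT-D replicate 1 (log2 1.05, adjusted p = 0.0360) or PT-ND replicate 1 (1.26, 0.0117) was left out. Cyp4f13 (−0.54 ± 0.18), Cyp4f16 (−0.59 ± 0.26) and Cyp4f14 (−1.10 ± 0.47), leukotriene and fatty acid hydroxylases, had adjusted p-values of 0.0801, 0.164 and 0.153. The adjusted p-value of the same difference between T-D and T-ND was 0.428 or more for each of these Cyp4 genes.

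Among the 13 Cyp2c and Cyp2j genes, 1 passed an adjusted p of 0.05 in PT-D against PT-ND. Of all genes, 7.14% passed as higher and 5.78% as lower. Cyp2j13, a Cyp2j gene at chr4:95915771-95965813 on the minus strand, had 3.13, 3.39 and 2.31 normalized counts in PT-ND and 17.3, 62.4 and 39.2 in PT-D. On the log2 scale it rose by 3.70 ± 0.65 (adjusted p = 0.00796), from counts close to the limit of detection in PT-ND. In T-D its 4 libraries lay between 28.2 and 34.1, inside the range of PT-D, and in T-ND between 2.10 and 32.2. Cyp2j11 was lower in every PT-D library (1306, 2660 and 2413 normalized counts) than in every PT-ND library (3493, 3353 and 3861) and missed the threshold at a log2 change of −0.75 ± 0.23 (adjusted p = 0.0578). Other genes of these families did not pass: the log2 difference was −0.25 ± 0.19 for Cyp2j5 (adjusted p = 0.442), 0.38 ± 0.21 for Cyp2j6 (0.253, named here for its level), −0.21 ± 0.28 for Cyp2j9 (0.669), −0.81 ± 0.55 for Cyp2j8 (0.369) and −0.15 ± 0.22 for Cyp2c23 (0.700). Cyp2j5 lay between 17221 and 20958 normalized counts in the 13 libraries other than PT-D replicate 1, which had 12033.

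Of the 4 vitamin D genes, 1 was called, higher in PT-D than in PT-ND, beside 2.96% of all genes called higher. Cyp24a1, which inactivates calcitriol and is a classical target of the vitamin D receptor, lies at chr2:170324628-170339065 on the minus strand. Its upstream 250 bases (GRCm39, minus strand, chr2:170339066-170339315) are shown for a match to AGGTGA, in capitals as read on the opposite strand, which begins 154 bases before the start of the transcript.
Cyp24a1: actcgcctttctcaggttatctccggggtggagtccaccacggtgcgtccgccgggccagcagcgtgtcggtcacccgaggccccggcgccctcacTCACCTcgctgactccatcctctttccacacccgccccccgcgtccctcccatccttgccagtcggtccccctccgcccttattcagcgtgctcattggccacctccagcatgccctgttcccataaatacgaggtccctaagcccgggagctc
A match to AGGTGA was present in 14% of all upstream windows and in 21.9% of those of the members. Cyp24a1 had 536.1, 343.8 and 633.4 normalized counts in PT-ND and 2670, 774.1 and 1081 in PT-D, without overlap. The log2 fold change was 1.58 ± 0.40 (adjusted p = 0.0278). PT-D replicate 1 held the highest value, and without it the change was 0.88 (adjusted p = 0.0418), under the fold threshold. Without PT-ND replicates 1, 2 or 3 the adjusted p was 0.0525, 0.103 or 0.0670, in 1 fit of all 14 libraries it was 0.182, and in the libraries without the suffix the change was 0.67 (adjusted p = 0.118). The T-ND libraries spanned 641.2 to 4232, above and below the PT-D range.

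Cyp27b1, which makes calcitriol, had 1000.2, 315.6 and 565.4 normalized counts in PT-ND and 706.8, 141.4 and 353.5 in PT-D, with overlap (log2 −0.65 ± 0.50, adjusted p = 0.432). It was called lower in PT-D in the 4 libraries of these groups without the suffix. Cyp27a1, a mitochondrial sterol 27-hydroxylase that can also 25-hydroxylate vitamin D, differed by 0.05 ± 0.18 (adjusted p = 0.889). Cyp2r1, the main 25-hydroxylase of the liver, was at 15.6 normalized counts or fewer in every library. Of 11 genes of vitamin D handling and its targets other than P450s, 2 were higher and 1 lower in PT-D at an adjusted p under 0.05, beside 7.14% and 5.78% of all genes. Trpv5 and Trpv6, the calcium channels of the distal tubule and known vitamin D targets, rose by 1.71 ± 0.19 (adjusted p = 0.00170) and 1.28 ± 0.30 (adjusted p = 0.0202) on the log2 scale. Pth1r, the parathyroid hormone receptor, had a log2 change of −0.62 ± 0.16 (adjusted p = 0.0306). Vdr, the vitamin D receptor, differed by 0.45 ± 0.18 (adjusted p = 0.121). Slc12a3, a marker of the distal convoluted tubule, had 5035 to 10311 normalized counts in PT-ND and 8990 to 22462 in PT-D. Its part in the Cyp24a1, Trpv5 and Trpv6 values was not tested.

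Cyp7b1, an oxysterol and steroid 7-alpha-hydroxylase, was the 1 gene called of 4 sterol and bile acid genes, beside 4.95% of all genes. Its normalized counts were 29.2, 39.6 and 58.8 in PT-ND and 103.1, 248.3 and 159.9 in PT-D. On the log2 scale it rose by 2.00 ± 0.39 (adjusted p = 0.0107). Cyp39a1, a 24-hydroxycholesterol hydroxylase, was lower in every PT-D library (120.4, 105.3 and 151.9) than in the PT-ND libraries (182.5, 168.5 and 161.5) without passing (log2 −0.44 ± 0.23, adjusted p = 0.242). Cyp26b1, which clears retinoic acid, had 17.7, 15.8 and 9.23 normalized counts in PT-ND and 35.6, 84.3 and 160.7 in PT-D. On the log2 scale it rose by 2.70 ± 0.55 (adjusted p = 0.0132), and its adjusted p became 0.0514 without PT-D replicate 3 and 0.0586 without PT-ND replicate 3. Cyp26a1, of the same function, stayed at 26.5 normalized counts or fewer in every library and differed by −0.20 ± 0.77 (adjusted p = 0.896).

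Of the 17 genes of Cyp1, Cyp2a, Cyp2b, Cyp2d, Cyp2e, Cyp2f and Cyp3a, best known for foreign compounds, 2 passed and 1 was called in PT-D against PT-ND. Of all genes, 7.14% passed as higher, 5.78% passed as lower and 4.95% were called. Cyp3a13, the Cyp3a gene with the highest level here, had 22.9, 29.4 and 17.3 normalized counts in PT-ND and 131.3, 39.9 and 124.8 in PT-D (log2 2.08 ± 0.48, adjusted p = 0.0196). The call was lost without PT-D replicate 3 (adjusted p = 0.0647) and without PT-ND replicates 2 (0.0535) or 3 (0.0806), and in the libraries without the suffix (0.0708). Cyp2e1 had 2975, 4328 and 4042 normalized counts in PT-ND and 6867, 8908 and 4824 in PT-D, without overlap, and was higher by 0.86 ± 0.23 on the log2 scale (adjusted p = 0.0330), under the fold threshold. T-D lay between 4958 and 6007, inside the PT-D range. For Cyp2a4, PT-D replicate 1 had 262.7 normalized counts, the other 2 PT-D libraries 3789 and 3107, and PT-ND 3819 to 6607 (log2 −1.09 ± 0.65, adjusted p = 0.297). Cyp2d12 (−0.92 ± 0.42), Cyp2d26 (−0.34 ± 0.15) and Cyp2d22 (−0.26 ± 0.14) had adjusted p-values of 0.175, 0.167 and 0.242. Cyp1a1 and Cyp1b1, targets of the aryl hydrocarbon receptor, differed by 0.48 ± 0.63 and 0.03 ± 0.41 (adjusted p = 0.661 and 0.971). The steroid hormone genes were near the limit of detection. Cyp17a1 averaged 9.82 normalized counts over the libraries, Cyp11a1 0.928 and Cyp21a1 1.1.

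Markers of other cell types moved between the same groups. The 3 endothelial markers summed to 1775 to 3382 normalized counts in PT-ND and 4223 to 5195 in PT-D, and the 4 leukocyte markers to 394.3 to 745.4 and 957.7 to 2073. Both sums were below PT-D in the term groups too. For endothelium they were 2577 to 3140 in T-ND and 1436 to 2873 in T-D, and for leukocytes 345.0 to 673.6 and 371.1 to 745.8. The 4 hepatocyte markers, mostly Alb, summed to 267.0 to 279.2 in PT-ND and 282.7 to 602.6 in PT-D, with Serpina1c at 0 in every PT-D library, and to at most 223.1 in T-ND and 203.5 in T-D. The 3 genes of tubular injury (Havcr1, Lcn2 and Krt20) summed to 651.5 to 830.2 in PT-ND and 3069 to 8232 in PT-D. In term mice they summed to 735.2 to 4429 in T-ND and 1017 to 6510 in T-D. Havcr1 alone had 57.0 to 2638 normalized counts in T-ND and at most 202.1 in T-D. The 7 markers of the first proximal segments summed to 154266 to 173327 and 141757 to 170943, which overlapped, and the 4 of the last segment to 15549 to 18133 and 4843 to 18767. The 2 markers of the loop of Henle (37751 to 53822 and 17311 to 41722) and the 2 of red cells (208.1 to 2320 and 2138 to 5189) also overlapped. Of 4 genes known for higher expression in male kidney, Acsm3 was called higher in PT-D (log2 1.31 ± 0.38, adjusted p = 0.0469), Kap had a change of −2.31 ± 0.72 (adjusted p = 0.0588), Odc1 of −0.61 ± 0.23 (0.107) and Slco1a1 of 0.84 ± 1.3 (0.723). The part of these cell types and genes in the P450 values was not tested.

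Genes that serve the P450s were compared in the same kidneys. Of 16 redox partner and heme synthesis genes, 5 were lower in PT-D than in PT-ND at an adjusted p under 0.05, as were 5.78% of all genes, none was higher and none was called. They were the electron carriers Fdx1 (log2 −0.79 ± 0.15, adjusted p = 0.0106) and Cyb5a (−0.75 ± 0.17, 0.0201) and the heme enzymes Alad (−0.71 ± 0.16, 0.0178), Uros (−0.71 ± 0.20, 0.0413) and Urod (−0.55 ± 0.14, 0.0309). Por, the oxidoreductase, differed by 0.06 ± 0.19 (adjusted p = 0.874). Ephx1, the microsomal epoxide hydrolase, rose by 1.66 ± 0.24 (adjusted p = 0.00410), from 743.7, 1159 and 587.3 to 2168, 2847 and 2842 normalized counts. Tbxas1, thromboxane synthase, a P450 with another symbol, fell by 1.44 on the log2 scale (SE 0.23, adjusted p = 0.00593). Of 22 targets of PPAR-alpha, the receptor best known for inducing Cyp4a10 and Cyp4a14, 1 was higher and 2 were lower at an adjusted p under 0.05 (all genes 7.14% and 5.78%), with Ech1, a fatty acid oxidation enzyme, called lower (−1.04 ± 0.17, adjusted p = 0.00685).

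In term mice, none of which had a second round of STZ, no member was called. In T-D against T-ND, edgeR called 0 of 64 members, where 0.0673% of all genes were called. An unadjusted p under 0.05 was found for 2 members and for 11.8% of all genes, and DESeq2 called 1 member, Cyp2a5, and 1.32% of all genes. Its normalized counts were 30099 and 34036 in T-ND replicates 1 and 2 but 2443 and 4203 in T-ND replicates 3 and 4, and 3081, 1995, 1760 and 1721 in T-D. The difference (log2 −3.06 ± 0.70, adjusted p = 0.153) was carried by the 2 T-ND libraries whose names carry the suffix, and in the libraries without it the change was −0.86 (adjusted p = 0.625). The 7 genes called in preterm mice had these changes in term mice: Cyp4a12b 1.5 ± 0.69 (adjusted p = 0.428), Cyp2j13 1.09 ± 0.58 (0.484), Cyp4a12a 0.48 ± 0.26 (0.484), Cyp7b1 0.39 ± 0.42 (0.749), Cyp3a13 −0.79 ± 0.51 (0.563), Cyp26b1 −1.0 ± 0.55 (0.497) and Cyp24a1 −1.19 ± 0.67 (0.500). Ephx1 was called in term mice too (log2 1.77 ± 0.22, adjusted p = 0.0132), as was Tiparp, a target of the aryl hydrocarbon receptor (1.25 ± 0.15, adjusted p = 0.0132).

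**Figure D3:**
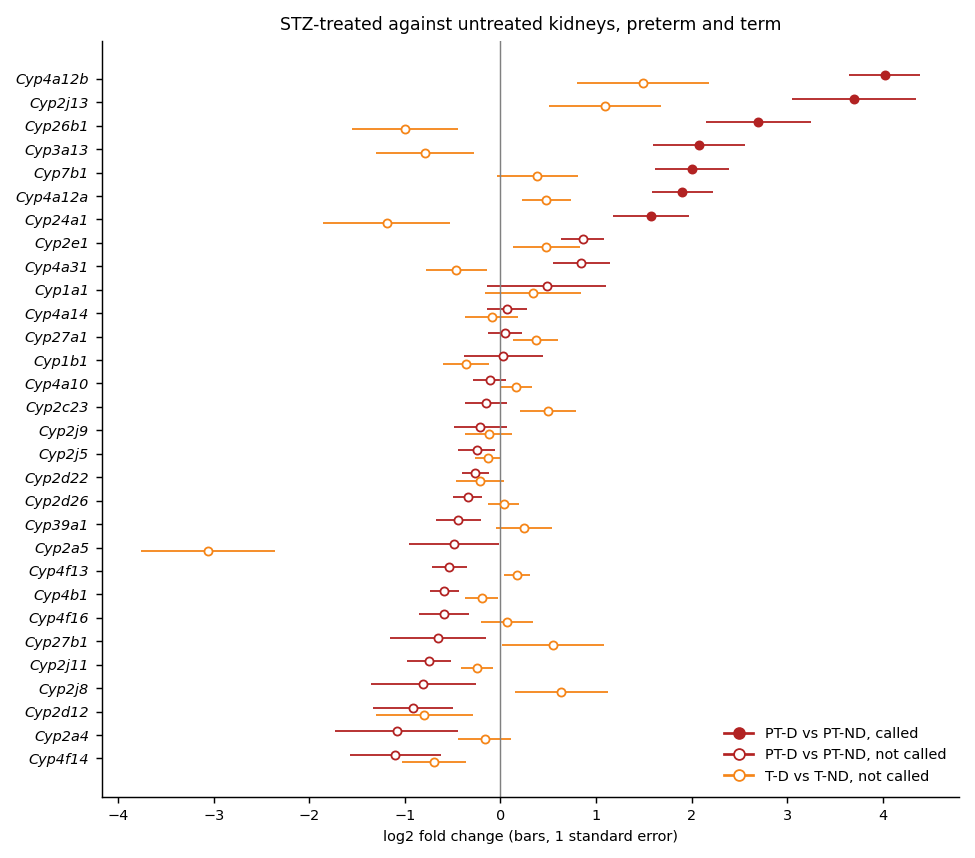
Log2 fold change of STZ-treated over untreated kidneys for the named P450 genes with a mean of 10 normalized counts or more, in preterm mice (PT-D vs PT-ND) and in term mice (T-D vs T-ND), with 1 standard error as bars. Filled points passed both thresholds. The 7 filled points lie between 1.58 and 4.02, and none of the term values is filled.

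Whether the response differed between preterm and term mice was tested as an interaction on all 14 libraries. It was called for 2 of 64 members, Cyp26b1 (log2 3.69 ± 0.86, adjusted p = 0.0301) and Cyp3a13 (2.85 ± 0.77, adjusted p = 0.0431), both with a larger change in preterm mice, where 4.45% of all genes were called and 1.98% in that direction. For both, the fitted change was upward in preterm and downward in term mice. Cyp26b1 had 10.7, 75.8, 34.6 and 50.5 normalized counts in T-ND and 34, 28, 13.7 and 11.6 in T-D. Cyp3a13 had 52.3, 104.1, 22 and 19.3 in T-ND and 27.2, 36.6, 32.8 and 19.3 in T-D, where its highest T-ND values were again those of the 2 libraries with the suffix. In the libraries without the suffix the adjusted p was 0.0664 for Cyp26b1 and 0.302 for Cyp3a13, with an interaction of 1.5 for the latter. Leaving out 1 library ended the call of Cyp26b1 in 6 of 14 fits (adjusted p up to 0.0939) and that of Cyp3a13 in 10 of 14 (up to 0.123), a replicate block ended both (0.0618 and 0.0591), and the suffix as a covariate ended that of Cyp3a13 (0.0608). In edgeR the interaction missed the threshold for Cyp4a12a (1.40 ± 0.44, adjusted p = 0.0654), Cyp24a1 (2.75 ± 0.98, 0.0963), Cyp4a12b (2.50 ± 0.91, 0.101), Cyp2j13 (2.59 ± 0.94, 0.101) and Cyp7b1 (1.59 ± 0.64, 0.140). DESeq2 called the interaction for 5 members, Cyp26b1, Cyp3a13, Cyp4a12a, Cyp4a12b and Cyp2j13, and for 7.38% of all genes, so that for the last 3 of these the call depended on the tool.

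In PT-D against T-D, preterm birth in the setting of hyperglycemia, edgeR called 0 of 64 members and 0.193% of all genes. An unadjusted p under 0.05 was found for 9 members and for 22.3% of all genes. DESeq2 called 5 members, Cyp4a12a, Cyp4a12b, Cyp3a13, Cyp26b1 and Cyp2a5, and 2.96% of all genes. In edgeR the log2 difference was 1.22 ± 0.24 for Cyp4a12a (adjusted p = 0.0664), 2.07 ± 0.48 for Cyp4a12b (0.0716), 1.75 ± 0.43 for Cyp3a13 (0.0801), 2.09 ± 0.52 for Cyp26b1 (0.0826), 1.64 ± 0.42 for Cyp2a5 (0.0838) and 1.02 ± 0.26 for Cyp4a31 (0.0838). Every PT-D library was above every T-D library for 5 members, the first 4 of these and Cyp26a1, and below for 1, Cyp4a10. The share over all genes is not given for this pair, so these counts are not read as a result on the members. The comparisons with PT-D share its 3 libraries, so they are not separate evidence.

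In PT-ND against T-ND, preterm birth without STZ, 0 of 63 members and 0.0809% of all genes were called by edgeR, and DESeq2 called 0 members and 0.737% of all genes. An unadjusted p under 0.05 was found for 9 members and for 10.7% of all genes. Cyp24a1 was lower in every PT-ND library than in every T-ND library (log2 −2.10 ± 0.59, adjusted p = 0.281). Within T-ND it followed the library name, with 859.1 and 641.2 normalized counts in replicates 1 and 2 and 2945 and 4232 in replicates 3 and 4. With the suffix as a covariate the change was −2.01 (adjusted p = 0.0263), and in the libraries without it −2.62 (adjusted p = 0.00554). Cyp27b1 had 49.9 and 60.3 normalized counts in T-ND replicates 1 and 2 and 330.0 and 290.2 in replicates 3 and 4, against 1000.2, 315.6 and 565.4 in PT-ND. Its log2 difference was 1.78 ± 0.61 (adjusted p = 0.382), and 1.79 with the suffix as a covariate (adjusted p = 0.0263). Cyp4f13 (0.59 ± 0.17, adjusted p = 0.281), Cyp2j8 (1.73 ± 0.52, 0.320) and Cyp4f16 (0.83 ± 0.27, 0.364) were the other members among the 5 with the smallest p.

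**Figure D4:**
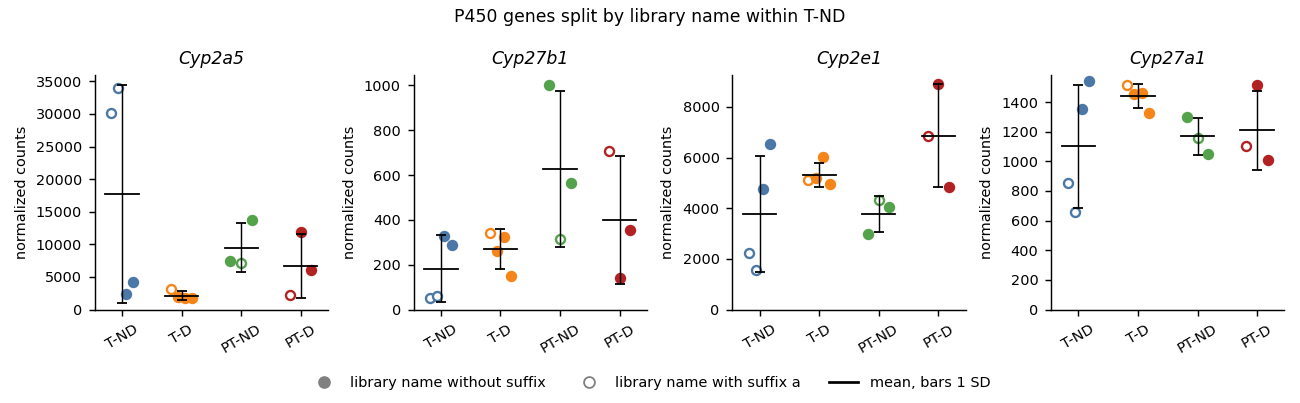
Normalized counts of Cyp2a5, Cyp27b1, Cyp2e1 and Cyp27a1, 1 point per library, with group means (lines) and 1 SD (bars). Open points are libraries whose name carries the suffix a. In T-ND the open points (replicates 1 and 2) lie above the filled ones for Cyp2a5 and below them for the other genes.

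A split within T-ND was also seen in other abundant members, picked here after their values were seen. With 2 libraries against 2 such a split is common. How many members, and what share of all genes, were split in this way is not given. Cyp2e1 had 2246 and 1574 normalized counts in T-ND replicates 1 and 2 and 4745 and 6519 in replicates 3 and 4. Cyp27a1 had 850.7 and 660.3 against 1352 and 1541, and Cyp4a14 had 9339 and 9819 against 17338 and 17480. In the other groups, which hold 1 library with the suffix each, that library did not lie on 1 side of the others for Cyp2a5: it was the highest in T-D and the lowest in PT-ND and in PT-D. What the suffix stands for is not given.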

How the data were processed

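Whole-kidney poly-A RNA of 14 female mice was sequenced without strand information. With STAR on GRCm39, the authors counted uniquely mapped reads on each gene, and of the deposited raw counts those that ignore strand were used. The STAR version is not given in the sources used here. GENCODE M39 gave symbols, lengths and positions for 56236 of 56980 gene IDs. TPM was computed from counts and the joint length of all annotated exons of each gene. Normalized counts are counts scaled by TMM factors over the 14 libraries. Groups and replicate numbers follow the sample labels. The members and lists were chosen with earlier results of these data known.

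Genes with at most 10 counts in all were dropped. Pairs of groups were fitted on their own libraries, and the interaction (change with STZ in preterm minus that in term mice) on all 14, with edgeR 4.0.16 in R 4.3.3 (TMM, two-sided quasi-likelihood test, Benjamini-Hochberg adjustment over all genes). Calls needed an adjusted p under 0.05 and a log2 fold change beyond 1, the study's thresholds. The procedure was tested on simulated data. Named were members called in any comparison, the 12 highest by level, genes fixed for their roles, and per pair the 5 with the smallest p among those averaging 10 normalized counts. Alternatives were DESeq2 1.42.0, RLE normalization, no filter, filterByExpr, 1 fit of all libraries, the suffix as covariate, libraries without it, a replicate block, no fold threshold, and each library left out.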

Additional observations from a re-analysis of the deposited data

Results flagged for a closer look

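In the test of the difference itself, the change with STZ was called as differing between preterm and term mice for Cyp26b1, by 3.69 on the log2 scale, and for Cyp3a13, by 2.85. These calls were made in 8 and 4 of the 14 fits that left out 1 library, and neither was made with a replicate block. Within a group of 4, Dixon's gap-to-range ratio set 1 library apart for 4 of the 35 named genes, among 70 gene and group pairs examined, where chance sets apart about 1 in 20. T-ND replicate 2 was the highest in its group for Cyp26a1 (ratio 0.886), with 18.3 normalized counts against 5.24 or fewer. T-ND replicate 3 was the only T-ND library with a count of Cyp21a1 (ratio 1), at 1.05 normalized counts. T-D replicate 1 was the highest for Cyp17a1 (ratio 0.874), at 17 normalized counts against 5.33 or fewer. T-D replicate 4 was the highest for Cyp4f14 (ratio 0.836), at 275.4 normalized counts against 138.2 or fewer.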

How the results depend on the processing

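The 49 named gene results with an unadjusted p under 0.05, 11 of them called, kept their direction in every alternative that could be fitted. They were chosen by their p in the reported fit, and the alternatives refit the same libraries. A kept direction was therefore likely beforehand and is not separate evidence. Counts of called members moved as follows. In PT-D against PT-ND, 7 became 11 with no filter on low counts (3 of them lower in PT-D), 11 with a replicate block (4 lower), 6 in 1 fit of all libraries (without Cyp24a1), 6 in the libraries without the suffix (without Cyp24a1 and Cyp3a13, with Cyp27b1 lower), and 4 to 8 when 1 library was left out. In PT-D against T-ND, 2 became 0 to 2 when 1 library was left out. In the libraries without the suffix it stayed at 2, with Cyp24a1, lower in PT-D, in place of Cyp4a12b. In PT-D against T-D, 0 became 5 with DESeq2, 3 in 1 fit of all libraries, 1 in the libraries without the suffix, 7 with no filter, 1 with a replicate block and 0 to 1 with 1 library left out. In T-D against T-ND, 0 became 1 with DESeq2, 1 with no filter and 0 to 1 with 1 library left out. In PT-ND against T-ND, 0 became 1 in the libraries without the suffix and 2 with the suffix as covariate, and stayed at 0 with each library left out. In the interaction, 2 became 5 with DESeq2, 5 with no filter, 0 in the libraries without the suffix, 0 with a replicate block, 1 with the suffix as covariate and 0 to 3 with 1 library left out. The cause was not tested, and the number of all genes called is given below only for the reported edgeR fit and for DESeq2. Without the fold threshold the counts were 10 in PT-D against PT-ND and as before elsewhere. Over all genes, edgeR and DESeq2 called 1105 and 1360 in PT-D against PT-ND, 323 and 964 in PT-D against T-ND, 43 and 661 in PT-D against T-D, 15 and 293 in T-D against T-ND, 18 and 164 in PT-ND against T-ND, and 993 and 1648 in the interaction. Between libraries with the same replicate number, the correlations of their deviations from the group means lay between −0.275 and 0.297. Pairs with different numbers were not computed, so whether the numbers pair the libraries is not settled. Members under about 10 normalized counts, Cyp2j13 in PT-ND among them, rest on few reads, and with 3 mice in each preterm group 1 library decides several calls.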
